A study of Mus musculus with 36 samples.

Results

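Nodal, Lefty1, Lefty2 and Skil were taken by gene symbol from all 6 tables of a SLAM-seq series in mouse embryonic stem cells (mES cells), and these 4 genes are among 22979 listed in any table and 18419 listed in all. SLAM-seq marks new RNA with the uridine analogue 4-thiouridine (4sU), which is read as C in place of T after chemical conversion. The 36 libraries came from 3 degron lines made in interspecific Cast x 129S cells, each a single clone, with FKBP12 F36V, a tag through which the small molecule dTAG-13 has a protein degraded, fused to METTL3 in clone 12D, to YTHDC1 in clone Y12H and to ZCCHC8 in clone Z12H. Each line had a Ctrl arm without dTAG-13 and a dTAG arm that received it 2 h before Xist induction. The study's methods do not name dTAG-13 in the media of pulse and chase. Each arm was collected after 0, 90 or 180 min of chase in 50 mM uridine, with 2 replicates, so that there were 18 groups. Both arms carried the tag, Xist under a TetOn promoter on the 129S allele, and the Bgl system, and both received doxycycline at 1 µg/ml for 20 h followed by a 4 h pulse of 500 µM 4sU, so that no group lacked Xist induction or label. The cells were grown on inactivated fibroblast feeders, which were largely removed by preplating. The labels give the replicates only a number, and by the study's methods a biological replicate is a batch of cells whose wells were assigned to the conditions at random. Unless a replicate block is named, fits took the libraries of 2 such batches of 1 clone as independent. Their p-values mix spread between batches with spread between wells of a batch. Fits of a single replicate hold no spread between batches.

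Nodal is a secreted ligand of the TGF-β family that is cleaved by convertases, binds activin receptors together with a co-receptor, and acts through SMAD2 and SMAD3, which enter the nucleus with SMAD4 and FOXH1. Lefty1 and Lefty2 encode secreted antagonists of Nodal that are themselves induced by the pathway, so that ligand and antagonists form a feedback loop. Skil encodes SnoN, a repressor that binds SMAD proteins and whose gene is also a target of the pathway. In mES cells the pathway is active through ligands made by the cells themselves, and its targets are among the genes whose levels follow signalling closely. Of the depleted proteins, METTL3 is the enzyme that places N6-methyladenosine (m6A) on RNA, YTHDC1 binds this mark in the nucleus, and ZCCHC8 is the scaffold of NEXT, a complex that feeds transcripts to the nuclear exosome.

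All 4 genes lie on the plus strand (mm10, GENCODE M21). Nodal (ENSMUSG00000037171, chromosome 10, 61417972 to 61425338) has 3 exons, Lefty1 (ENSMUSG00000038793, chromosome 1, 180935022 to 180938400) and Lefty2 (ENSMUSG00000066652, chromosome 1, 180893108 to 180899103) have 4 exons each, and Skil (ENSMUSG00000027660, chromosome 3, 31095058 to 31122577) has 7 exons. The transcripts used here measure 2095, 1620, 2473 and 6717 bases in that order. Lefty1 and Lefty2 are neighbours that arose from one gene, and their coding sequences bear on how far their counts can be separated. Over 1104 aligned coding bases, 1014 were identical (91.85%), 90 were mismatched and none was gapped, and the longest identical run was 140 bases. Of 1540 stretches of Lefty1 that are 81 bases long, the length of 1 read, 149 (9.68%) occurred in Lefty2 without a mismatch. Within 4 mismatches it was 692 (44.9%), where 4 is the authors' limit of 0.06 of read length applied to 1 read of a pair. A read in an exact stretch could be placed only by its mate. A read with mismatches to the other gene could be placed where 1 gene matched better. How far this leaves the counts of both Lefty genes uncertain was not measured.

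The exonic coding window of 120 bases in which both genes differ most is shown because it bears on how their reads are separated. From coding base 46 to 165 (exonic, mm10, plus strand), Lefty1 at chr1:180935155-180935274 and Lefty2 at chr1:180893229-180893348 share 86 of 120 bases (71.7%), and capitals mark the 34 bases that differ.
Lefty1, least alike: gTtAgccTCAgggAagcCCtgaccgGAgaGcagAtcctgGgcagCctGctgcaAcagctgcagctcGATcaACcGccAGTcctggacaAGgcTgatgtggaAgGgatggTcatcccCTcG
Lefty2, least alike: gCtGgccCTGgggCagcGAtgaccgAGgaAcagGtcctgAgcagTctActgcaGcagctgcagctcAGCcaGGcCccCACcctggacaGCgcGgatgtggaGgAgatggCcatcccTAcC

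The letters GGACT, a frequent form of the sequence in which m6A is placed, were counted on the transcript strand. Nodal held 4 copies, Lefty1 2, Lefty2 3 and Skil 5, which is 1.909, 1.235, 1.213 and 0.7444 per kb, against a median of 1.036 per kb over 13618 transcripts of genes tested in all 3 lines. GGACT occurred in 92.7% of those transcripts, and its presence here is a description, not a mapped m6A site. T made up 22.24% of the Nodal transcript, 20.74% of Lefty1, 24.34% of Lefty2 and 30.55% of Skil, with a median of 24.65% over the same transcripts.

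Libraries held 5274684 to 18652000 reads, and those of the ZCCHC8 line were the shallowest (5274684 to 10257631). All 4 genes had reads in 36 of 36 libraries, with 699 to 3187 reads for Nodal, 136 to 2335 for Lefty1, 446 to 2814 for Lefty2 and 515 to 3912 for Skil, and all 4 passed the filter on low counts in every line. The chi-square per degree of freedom over genes was computed between the 2 replicates of a group. It was 18.87 to 72.65 in the METTL3, 24.69 to 35.75 in the YTHDC1 and 2.343 to 4.205 in the ZCCHC8 line. All values lay above sampling noise, and no library was treated as a duplicate. With spread and depth unlike, shares of genes called are not directly comparable between lines. Mettl3, Ythdc1 and Zcchc8 had reads in 36 of 36 libraries, which is no check of the depletion, since the degron acts on protein. The cells expressed 8 of 8 mES cell markers, with a summed level of 2540 to 3883 CPM (CPM, read counts scaled to a common library total after TMM). The 9 feeder markers summed to 8.90 to 35.6 CPM and the 7 endoderm markers to 11.4 to 39.3 CPM.

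Before the effect of depletion, the 4 genes were compared in the Ctrl arm per kb of transcript. Nodal was at 57.5 ± 9.36, 57.1 ± 6.74 and 78.9 ± 16.7 CPM per kb in the METTL3, YTHDC1 and ZCCHC8 lines (SD, n = 6 libraries over the 3 chase times). Lefty1 was at 56.96 ± 32.4, 56.1 ± 30.4 and 40.1 ± 23.5 CPM per kb, the wide SD holding its rise over the chase. Lefty2 was at 55.9 ± 9.17, 60.2 ± 9.60 and 41.9 ± 7.34 CPM per kb. Skil had the lowest mean of the 4 in each line, at 26.7 ± 5.58, 19.5 ± 5.04 and 15.4 ± 3.496 CPM per kb. In the METTL3 and YTHDC1 lines Nodal, Lefty1 and Lefty2 lay within their spread of each other. In the ZCCHC8 line Nodal ranged from 64.2 to 110.1 CPM per kb and Lefty2 from 33.2 to 50.5, without overlap, while Lefty1 (16.1 to 72.9) overlapped both.

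The Ctrl level differed between lines for 3 of the 4 genes in 1 comparison. Against the METTL3 line, the ZCCHC8 line had more Nodal (log2 difference 0.44, SE 0.14, edgeR adjusted p = 0.0480), less Lefty1 (-0.50, SE 0.15, edgeR adjusted p = 0.0390) and less Skil (-0.79, SE 0.12, edgeR adjusted p = 0.000513), where 10.3% of all genes tested passed. Without replicate 1 the Lefty1 value was -0.15 and did not pass. Lefty2 was lower by -0.43 (edgeR adjusted p = 0.142), and with replicate number as a block, under which 54.1% of genes passed, the same value of -0.43 passed (edgeR adjusted p = 0.00336). ZCCHC8 against YTHDC1 gave 0.45 for Nodal, -0.52 for Lefty1, -0.53 for Lefty2 and -0.33 for Skil, none past the threshold (edgeR adjusted p = 0.0550 to 0.125, 3.6% of genes called). With the block these 4 values passed (edgeR adjusted p = 1.22e-05 to 0.000650, 47.3% called). METTL3 against YTHDC1 gave 0.0097 for Nodal, -0.016 for Lefty1, -0.099 for Lefty2 and 0.47 for Skil, with 0 of 4 past the threshold (edgeR adjusted p for Skil 0.0508, 1.03% of genes called) and Skil past it with the block (edgeR adjusted p = 1.59e-05, 15.5% called). In a comparison of Ctrl levels between lines the block removes the spread between batches, which is the error such a comparison needs. Calls with it here rest on spread between wells of the same batches. Each line is 1 clone, so clone and tagged gene cannot be told apart.

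**Figure D1:**
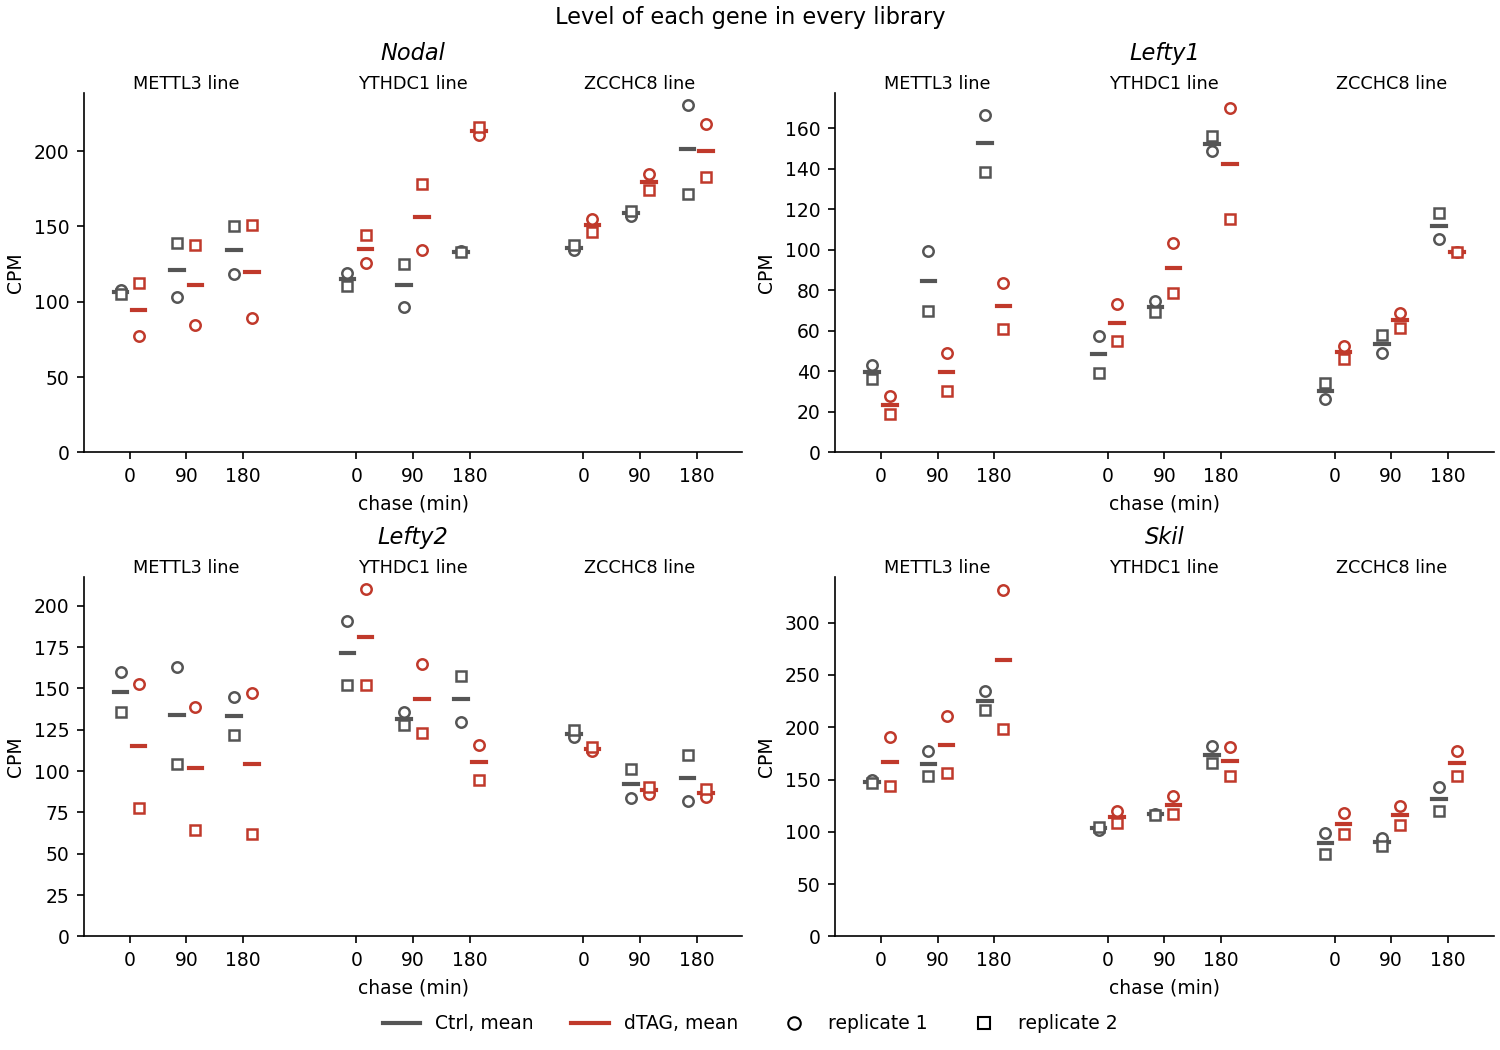
CPM of Nodal, Lefty1, Lefty2 and Skil (y axis, from 0) in each of the 36 libraries by line and chase time in min (x axis), with Ctrl in grey, dTAG in red, circles for replicate 1, squares for replicate 2 and a bar for the mean of 2. Lefty1 dTAG libraries of the METTL3 line lie below the Ctrl libraries of the same time at all 3 times, Nodal dTAG libraries of the YTHDC1 line lie above, and Lefty1 climbs from 18.7 to 73.1 CPM at 0 min to 60.7 to 170 CPM at 180 min.

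Nodal, the ligand, was higher in dTAG than in Ctrl libraries of the YTHDC1 line. At 0 min it was at 119 and 111 CPM in Ctrl replicates 1 and 2 and at 126 and 144 CPM in dTAG. At 90 min the values were 96.7 and 125 CPM in Ctrl and 134 and 178 CPM in dTAG, and at 180 min 133 and 133 CPM in Ctrl and 210 and 216 CPM in dTAG. The arms did not overlap at 3 of 3 times, and dTAG was higher in 6 of 6 pairs, by 0.08 to 0.70 on the log2 scale. The 3 times share the same 2 batches. How many of all genes do the same is not given here, nor for the pairs and overlaps below. The mean log2 difference was 0.23 ± 0.21 at 0 min, 0.49 ± 0.030 at 90 min and 0.68 ± 0.032 at 180 min (SD, n = 2), and the 0 min libraries alone gave a fitted 0.24 that did not pass. Over all 12 libraries the log2 fold change was 0.48 (SE 0.11, edgeR adjusted p = 0.0261), in a line where 5.25% of 14199 genes passed. Within single replicates, each a fit of 1 batch, it was 0.40 to 0.54.

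In the METTL3 line Nodal was at 103 to 150 CPM in Ctrl (median 113, n = 6) and 77.0 to 151 CPM in dTAG libraries (median 101, n = 6), with dTAG lower in 4 of 6 pairs. The log2 fold change of -0.14 (SE 0.18, 95% interval -0.48 to 0.20, edgeR adjusted p = 0.633) did not pass, and it rested on the replicate, at -0.37 in replicate 1 alone and 0.048 in replicate 2 alone. In the ZCCHC8 line Nodal was at 134 to 231 CPM in Ctrl (median 159, n = 6) and 146 to 218 CPM in dTAG libraries (median 178, n = 6), with dTAG higher in 5 of 6 pairs. There the log2 fold change was 0.12 (SE 0.062, 95% interval -0.0045 to 0.24, edgeR adjusted p = 0.141), and replicate 2 alone gave 0.11.

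Lefty1, a secreted Nodal antagonist, was the gene with the largest difference between arms among the 4, and it fell in the METTL3 line. At 0 min it was at 43.3 and 36.1 CPM in Ctrl replicates 1 and 2 and at 27.7 and 18.7 CPM in dTAG. After 90 min it was at 99.6 and 69.8 CPM in Ctrl and 49.1 and 30.1 CPM in dTAG, and after 180 min at 166 and 139 CPM in Ctrl and 83.5 and 60.7 CPM in dTAG. Every dTAG library lay below both Ctrl libraries of its time, and the 6 pairs were lower by -0.65 to -1.21 on the log2 scale. The log2 fold change was -0.98 (SE 0.17, 95% interval -1.30 to -0.65, edgeR adjusted p = 0.00252), where 20.1% of 14413 genes passed. It was -1.10 and -0.87 within single replicates, and -0.78 in the 0 min libraries alone, a comparison of 2 against 2 in which no gene passed. In bulk libraries fewer cells that express a gene and less RNA per cell cannot be told apart.

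In the YTHDC1 and ZCCHC8 lines the fitted Lefty1 response was above 0 and did not pass. In the YTHDC1 line it was at 57.3 and 39.4 CPM in Ctrl and 73.1 and 55.0 CPM in dTAG at 0 min, at 74.9 and 69.0 CPM in Ctrl and 103 and 78.5 CPM in dTAG at 90 min, and at 149 and 156 CPM in Ctrl and 170 and 115 CPM in dTAG at 180 min. The arms overlapped at 0 and 180 min and not at 90 min, and dTAG was higher in 5 of 6 pairs. Its log2 fold change there was 0.22 (SE 0.14, 95% interval -0.059 to 0.50, edgeR adjusted p = 0.470), with 0.33 in replicate 1 alone and -0.00048 in replicate 2 alone. In the ZCCHC8 line it was at 26.2 and 34.0 CPM in Ctrl and 52.7 and 46.1 CPM in dTAG at 0 min, but at 105 and 118 CPM in Ctrl and 99.0 and 98.8 CPM in dTAG at 180 min. The dTAG libraries were thus both higher at 0 min and both lower at 180 min, and the fitted log2 fold change over all times was 0.22 (SE 0.13, 95% interval -0.033 to 0.46, edgeR adjusted p = 0.206). In the 0 min libraries alone, 2 against 2, it was 0.71 (edgeR adjusted p = 0.000718). This was the only line in which any gene passed in such a comparison, and the number of genes is given in the closing section. Without the filter on low counts the Lefty1 fold change over all times was 0.20 and passed the threshold.

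Lefty2, the other secreted antagonist, passed the threshold in none of the lines in the fit of both replicates without the block, and in the METTL3 line it passed as lower with it. There it was lower in dTAG in 5 of 6 pairs, at 160, 163 and 145 CPM over the 3 chase times in Ctrl replicate 1 and 136, 104 and 122 CPM in Ctrl replicate 2. The dTAG values were 153, 139 and 147 CPM in replicate 1 and 77.5, 64.5 and 61.8 CPM in replicate 2, so that the arms of replicate 1 lay close together and those of replicate 2 far apart. The log2 fold change was -0.36 (SE 0.26, 95% interval -0.87 to 0.14, edgeR adjusted p = 0.365). With the replicate block, under which 48.5% of genes passed, it was -0.44 (edgeR adjusted p = 0.00320), and replicate 2 alone gave -0.81, against -0.066 in replicate 1 alone. In the YTHDC1 line Lefty2 was at 128 to 191 CPM in Ctrl (median 144, n = 6) and 94.8 to 210 CPM in dTAG libraries (median 138, n = 6), and in the ZCCHC8 line at 82.1 to 125 CPM (median 105) and 84.5 to 114 CPM (median 89.7). The log2 fold changes of -0.07 (95% interval -0.33 to 0.19, edgeR adjusted p = 0.855) and -0.09 (95% interval -0.21 to 0.029, edgeR adjusted p = 0.249) did not pass. Replicate 2 alone gave -0.18 in the ZCCHC8 line, and replicate 1 alone 0.010.

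Skil, the SMAD-binding repressor, rose in the ZCCHC8 line. At 0 min it was at 99.0 and 79.2 CPM in Ctrl replicates 1 and 2 and at 118 and 97.8 CPM in dTAG. At 90 min it was at 94.3 and 86.7 CPM against 125 and 106 CPM, and at 180 min at 142 and 120 CPM against 178 and 154 CPM. All 6 pairs were higher in dTAG, by 0.25 to 0.41, and the arms overlapped only at 0 min. The log2 fold change was 0.34 (SE 0.065, 95% interval 0.21 to 0.46, edgeR adjusted p = 0.000279), in a line where 39.6% of 13962 genes passed. Within single replicates it was 0.33 and 0.34, and the 0 min libraries alone gave 0.29 and did not pass. In the METTL3 line Skil was at 147 to 234 CPM in Ctrl (median 165, n = 6) and 144 to 331 CPM in dTAG libraries (median 194, n = 6). Its log2 fold change there was 0.20 (SE 0.14, 95% interval -0.075 to 0.47, edgeR adjusted p = 0.360), against 0.39 in replicate 1 alone and -0.021 in replicate 2 alone. In the YTHDC1 line it was at 102 to 182 CPM in Ctrl and 109 to 181 CPM in dTAG libraries, a log2 fold change of 0.07 (SE 0.071, 95% interval -0.065 to 0.21, edgeR adjusted p = 0.672).

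**Figure D2:**
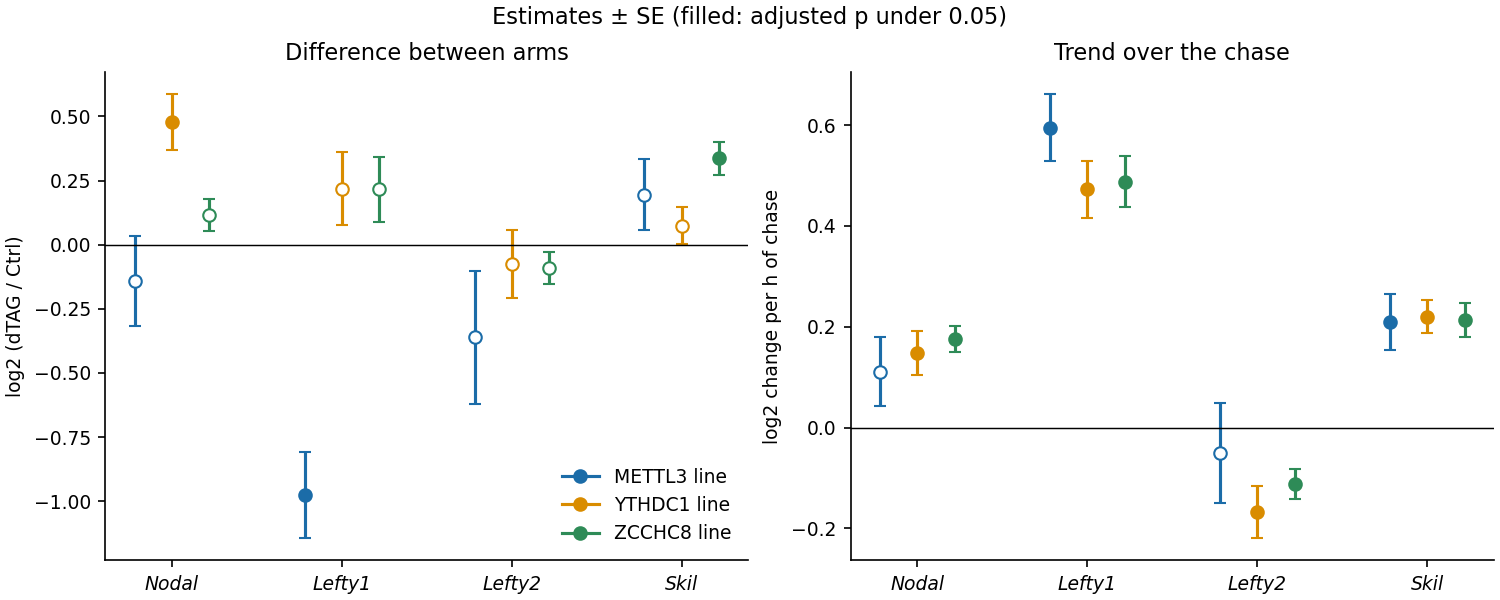
Left, fitted log2 fold change of dTAG over Ctrl for each gene in the METTL3 (blue), YTHDC1 (orange) and ZCCHC8 (green) lines. Right, fitted log2 change per h of chase. Bars are SE and filled points passed the threshold. On the left the filled points are Lefty1 in the METTL3 line (-0.98), Nodal in the YTHDC1 line (0.48) and Skil in the ZCCHC8 line (0.34), and on the right every point is filled except Nodal and Lefty2 in the METTL3 line.

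Each line thus had 1 of the 4 genes past the threshold. The share over all genes was 20.1% (METTL3), 5.25% (YTHDC1) and 39.6% (ZCCHC8). The gene was a different one in each line, so the differences between lines were tested themselves over all 36 libraries. The Lefty1 response was lower in the METTL3 than in the YTHDC1 line, with a log2 difference of -1.20 (SE 0.21, edgeR adjusted p = 0.000432, 16.8% of genes called). It was higher in the ZCCHC8 than in the METTL3 line by 1.26 (SE 0.21, edgeR adjusted p = 0.000198, 19.6% called). Both differences use the same METTL3 libraries. The Nodal response was lower in the METTL3 than in the YTHDC1 line by -0.62 (SE 0.20, edgeR adjusted p = 0.0332). The higher Skil response in the ZCCHC8 line was not shown to differ from that in the METTL3 line (0.14, SE 0.16, 95% interval -0.18 to 0.46, edgeR adjusted p = 0.631) or, without the block, from that in the YTHDC1 line (0.25, SE 0.16, edgeR adjusted p = 0.406, 10.5% of genes called). With the block that last difference passed, at 0.26 (edgeR adjusted p = 0.0381, 29.3% called). The Nodal response in the ZCCHC8 line was lower than in the YTHDC1 line by -0.36 (SE 0.20, edgeR adjusted p = 0.302) and higher than in the METTL3 line by 0.26 (SE 0.20, edgeR adjusted p = 0.414), and both passed with the block (-0.36, edgeR adjusted p = 0.0170, and 0.29, edgeR adjusted p = 0.0425, 43.2% called in the second). No Lefty2 difference between lines passed.

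Levels also moved during the chase itself, in both arms. Lefty1 rose in 12 of 12 series of 1 line, arm and replicate, by 1.88- to 4.02-fold between 0 and 180 min (median 3.13). Skil rose in 12 of 12 by 1.38- to 1.79-fold (median 1.51), and Nodal in 12 of 12 by 1.10- to 1.72-fold (median 1.30). Lefty2 was higher at 180 min in 1 of 12, with a ratio of 0.551 to 1.04 (median 0.788). The fitted trend for Lefty1 was 0.59, 0.47 and 0.49 per h on the log2 scale in the METTL3, YTHDC1 and ZCCHC8 lines (SE 0.066, 0.057 and 0.050, edgeR adjusted p = 0.000444, 5.67e-05 and 2.30e-06). For Skil it was 0.21, 0.22 and 0.21 per h (SE 0.056, 0.033 and 0.034), past the threshold in each. The background is high, since 17.9%, 41.8% and 58.6% of all genes passed in the 3 lines.

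Nodal rose by 0.15 per h in the YTHDC1 line (SE 0.044, edgeR adjusted p = 0.0161) and 0.18 per h in the ZCCHC8 line (SE 0.025, edgeR adjusted p = 2.72e-06). In the METTL3 line its trend of 0.11 per h (SE 0.069) did not pass (edgeR adjusted p = 0.286), and with the replicate block it was 0.10 and passed (edgeR adjusted p = 0.0273, 46.4% of genes called). Lefty2 fell by 0.17 per h in the YTHDC1 line (edgeR adjusted p = 0.0206) and by 0.11 per h in the ZCCHC8 line (edgeR adjusted p = 0.00298), and its METTL3 trend of -0.050 per h did not pass (edgeR adjusted p = 0.765). In replicate 2 alone the Lefty2 falls were -0.10 and -0.071 per h and no longer passed. The neighbours Lefty1 and Lefty2 thus differed in direction in the lines where both passed.

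New RNA was read from the MAP ratio, the part of a gene's RNA that GRAND-SLAM called made during the pulse, from 0 to 1. At 0 min the ratio was 0.864 to 1.00 for Nodal over the 12 libraries (median 0.980), 0.773 to 0.9993 for Lefty1 (median 0.947), 0.814 to 0.964 for Skil (median 0.905) and 0.579 to 0.714 for Lefty2 (median 0.656). Nodal, Lefty1 and Skil did not overlap Lefty2 there. The median ratio over all genes tested was 0.501 to 0.599 in the 6 combinations of line and arm, and 92.2% to 99.8% of those genes lay below Nodal, 79.1% to 97.9% below Lefty1, 85.0% to 92.8% below Skil and 53.1% to 68.4% below Lefty2. By 180 min Nodal and Lefty1 had the lowest medians, with 0.164 to 0.422 for Nodal (median 0.280), 0.149 to 0.447 for Lefty1 (median 0.267), 0.318 to 0.602 for Skil (median 0.413) and 0.359 to 0.600 for Lefty2 (median 0.447). The T-to-C rate, the conversions divided by the T bases covered, moved from 6.48% to 10.7% at 0 min to 1.04% to 2.14% at 180 min for Nodal. It moved from 5.22% to 9.98% to 0.974% to 2.28% for Lefty1, from 5.58% to 8.40% to 1.67% to 3.24% for Skil, and from 3.801% to 5.78% to 2.14% to 3.62% for Lefty2.

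**Figure D3:**
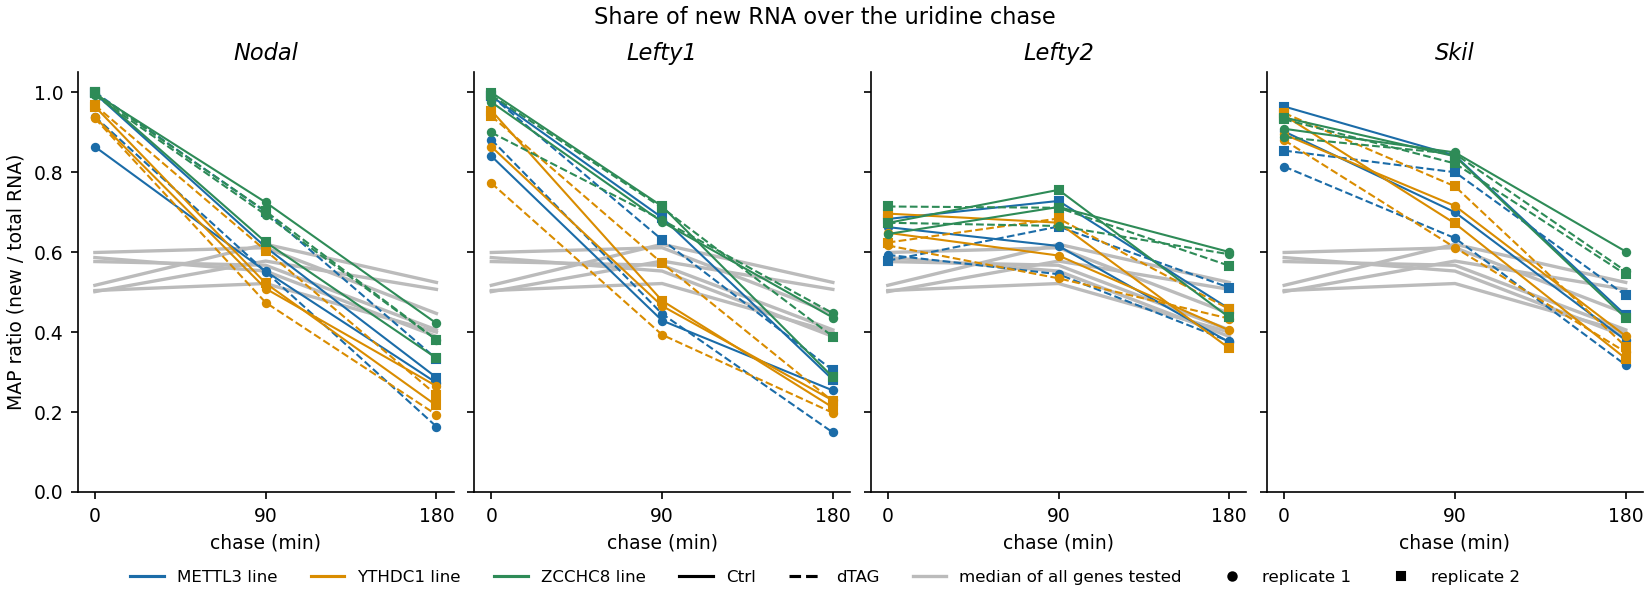
MAP ratio of new to total RNA (y axis, 0 to 1) against chase time in min (x axis) for each gene, with lines coloured by degron line, solid for Ctrl, dashed for dTAG, circles for replicate 1 and squares for replicate 2. Grey lines are the medians over all genes tested in each line and arm. Nodal and Lefty1 start at a median of 0.980 and 0.947 and end below the grey lines of their line, Skil falls mostly after 90 min, and Lefty2 starts near the grey lines.

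Of the ratio at 0 min, a median of 30.2% was left at 180 min for Nodal (17.4% to 42.4% over 12 series), 28.6% for Lefty1 (16.9% to 49.7%), 44.7% for Skil (35.4% to 66.2%) and 68.7% for Lefty2 (51.6% to 93.0%). Expressed as a log-linear half-life of the ratio, this was 71.4 to 145 min for Nodal (median 104), 70.1 to 179 min for Lefty1 (median 99.6), 120 to 302 min for Skil (median 155) and 189 to 1726 min for Lefty2 (median 334). The ratio of Nodal and Lefty1 fell faster than that of most genes, since 0.69% to 2.09% of all genes tested fell faster than Nodal in the 6 combinations of line and arm and 0.662% to 3.12% fell faster than Lefty1. For Skil the share was 10.5% to 15.8% and for Lefty2 30.4% to 47.1%. In the ZCCHC8 line the ratio of the median gene did not fall over the chase, with a median slope of 0.041 per h in Ctrl and 0.037 per h in dTAG on the log2 scale, so half-lives there are least secure. The half-life describes the share of label and not the decay of total RNA, since unlabelled RNA made in the chase lowers it as well.

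Each level was then split by its ratio into labelled and unlabelled CPM. Labelled Lefty1, the CPM times the ratio, was at 50.4% to 180% of its 0 min value after 180 min (median 90.7%), and was higher than at 0 min in 3 of 12 series. Labelled Nodal was at 20.1% to 72.7% (median 39.4%), labelled Skil at 54.3% to 95.2% (median 69.1%) and labelled Lefty2 at 38.7% to 70.4% (median 58.7%). As half-lives over 12 series each, labelled CPM gave medians of 134 min for Nodal, 235 min for Lefty2, 338 min for Skil and 1405 min for Lefty1, where labelled CPM did not fall in 3 series, counted as longest. Lefty1 thus had the longest median by labelled CPM and the shortest by the ratio. From the T-to-C rate the medians were 70.6 min for Nodal, 73.9 min for Lefty1, 108 min for Skil and 223 min for Lefty2. Unlabelled RNA rose in the same time by a median of 84.9 CPM for Lefty1, 109.8 CPM for Nodal, 96.1 CPM for Skil and 8.13 CPM for Lefty2. The authors' limit of 0.06 mismatches per base of read can remove strongly converted reads. Nodal, Lefty1 and Skil, with median T-to-C rates of 8.23%, 7.71% and 7.82% at 0 min against 5.18% for Lefty2, were the genes whose counts rose in 12 of 12 series, and the part of that limit in the rise was not tested.

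**Figure D4:**
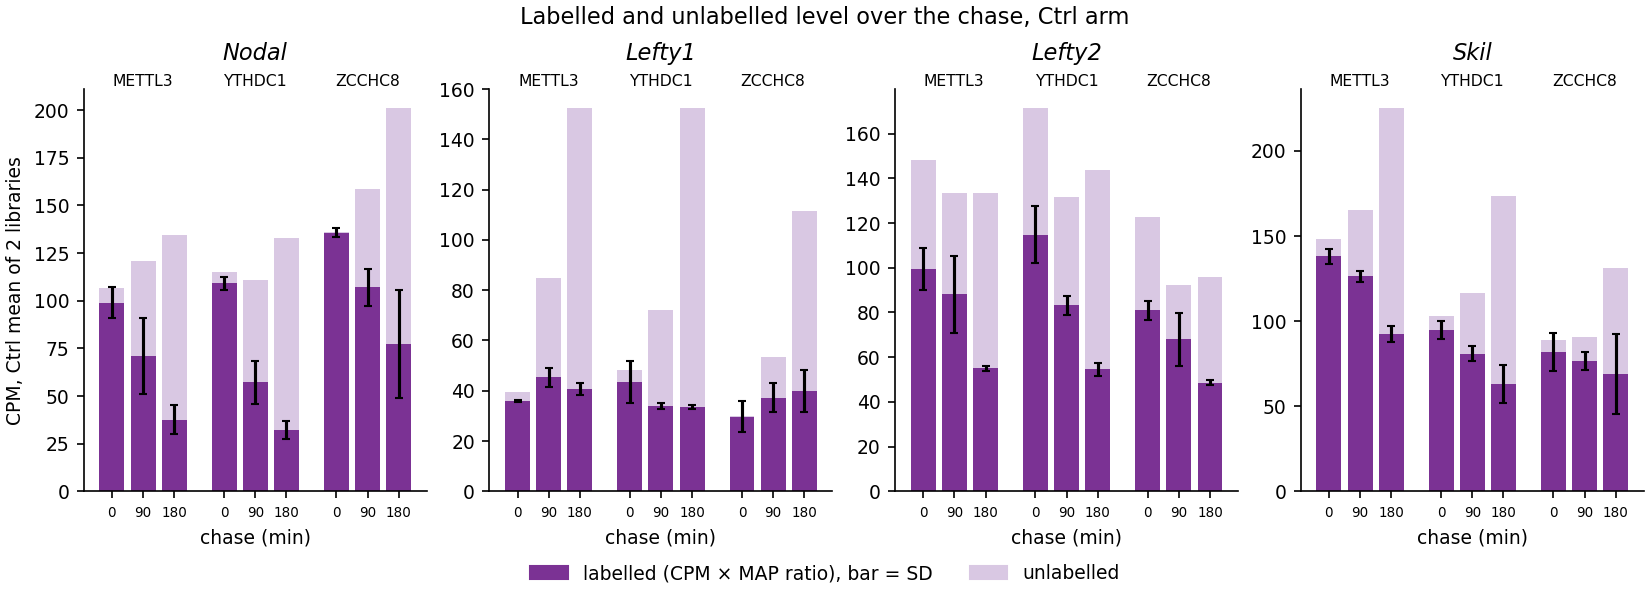
Labelled (dark) and unlabelled (light) CPM in the Ctrl arm by line and chase time in min, as means of 2 libraries stacked from 0, with SD bars on the labelled part. Labelled Nodal shrinks over the chase in each line while the light part grows, and labelled Lefty1 stays between 29.8 and 45.3 CPM while total Lefty1 rises.

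No difference between arms in the MAP ratio of these genes or its fall passed the test. Averaged over the chase, the log2 difference in MAP ratio between dTAG and Ctrl was -0.034 for Nodal, -0.11 for Lefty1, -0.090 for Lefty2 and -0.11 for Skil in the METTL3 line, where the median over all 8289 genes tested was -0.147 and 27.1% passed. The values were -0.045 to 0.016 for YTHDC1 and 0.020 to 0.058 for ZCCHC8 depletion, with 0.306% and 1.14% of genes called. None of the 12 values passed (limma adjusted p = 0.441 to 0.936). The difference in the slope of the ratio (label loss) ranged from -0.12 to 0.11 per h on the log2 scale over the 12 values and none passed (limma adjusted p = 0.992 to 1.000). The share of genes that passed was 0.471% for METTL3 depletion and 0% for each of the others, where limma gave 195 (YTHDC1) and 147 (ZCCHC8) genes with an unadjusted p below 0.05. For Nodal the 95% interval of the difference was -0.34 to 0.12 per h with METTL3, -0.20 to 0.10 with YTHDC1 and -0.13 to 0.14 with ZCCHC8 depletion. In replicate 1 of the METTL3 line alone the ratio fell faster in dTAG for Nodal (-0.29 per h) and Lefty1 (-0.28 per h), while in replicate 2 alone the difference was 0.071 and 0.038 per h. The Lefty1 ratio had a half-life of 102 ± 3.72 min in METTL3 Ctrl and 87.9 ± 25.2 min in METTL3 dTAG libraries, and that of Nodal in the YTHDC1 line 91.1 ± 10.7 and 84.7 ± 7.85 min (SD, n = 2). That of Skil in the ZCCHC8 line was 233 ± 98.9 and 247 ± 22.2 min, so for these genes the arms differed by less than the larger SD.

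A list of 37 other genes of the pathway was read in the same fits. In the METTL3 line 5 of 33 tested rose and 0 fell (15.2%, against 20.1% of all genes, 11.3% higher and 8.8% lower), and its median fold change in log2 was 0.12 against 0.0056 for all genes. Eomes, a T-box factor of mesendoderm and a Nodal target, rose from 4.06 ± 1.84 to 14.3 ± 6.87 CPM over 6 libraries (SD), or by 1.80 in log2 (SE 0.18, edgeR adjusted p = 0.000156). Zfyve9, an anchor that presents SMAD2 and SMAD3 to the receptor, rose from 38.3 ± 5.89 to 88.4 ± 13.8 CPM (1.22, SE 0.11, edgeR adjusted p = 9.07e-05). Tgfbr2, the type II TGF-β receptor, rose by 1.08 (SE 0.23, edgeR adjusted p = 0.00686), and Tgif1, a repressor of SMAD2 targets, by 0.59 (SE 0.11, edgeR adjusted p = 0.00334). Gdf3, a ligand related to Nodal, rose by 0.29 (edgeR adjusted p = 0.0381), and in replicate 1 alone its 0.22 did not pass. The other genes of the Nodal route proper did not pass, with -0.27 for Smad3 (edgeR adjusted p = 0.05004), 0.33 for Acvr2a, 0.22 for Smad2, 0.12 for Smad4, 0.013 for Acvr2b, -0.045 for the co-receptor gene Tdgf1, -0.045 for Acvr1b and -0.074 for Foxh1. With the replicate block 17 of the list passed, 13 higher and 4 lower (48.5% of all genes passed). The 7 endoderm markers summed to 12.8 to 25.9 CPM in Ctrl (median 18.2) and 19.9 to 39.1 CPM in dTAG libraries of this line (median 29.3), with 0 of 7 at 0. Over all 36 libraries the highest of them were Dab2 (median 12.2 CPM) and Pdgfra (4.69 CPM). Gata4, Gata6, Sox17, Sox7 and Foxa2 had medians of 1.59, 0.81, 0.78, 0.61 and 0.092 CPM. The sum by arm was not split by gene, and the part of these markers in the rise of Eomes was not tested.

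In the YTHDC1 line 0 of 32 tested genes of the list rose and 1 fell (3.12%, against 5.25% of all genes, 2.48% higher and 2.77% lower). The gene was Zfyve9, at -0.35 (SE 0.085, edgeR adjusted p = 0.0341), which in replicate 1 alone was -0.32 and did not pass. The route proper lay between -0.12 for Gdf3 and 0.40 for Acvr2b, an activin type II receptor gene (SE 0.18, edgeR adjusted p = 0.264), and with the block 10 of the list passed, as did 27.3% of all genes. In the ZCCHC8 line 8 of 31 rose and 9 fell (54.8%, against 39.6% of all genes, 20.1% higher and 19.5% lower), with a median of 0.018 against -0.0034 for all genes. Pcsk6, a convertase that cleaves Nodal, fell from 59.1 ± 10.1 to 32.9 ± 4.71 CPM (-0.83 in log2, SE 0.11, edgeR adjusted p = 5.98e-05). Pmepa1, a negative regulator of SMAD signalling, fell by 0.68 (SE 0.11, edgeR adjusted p = 3.38e-05). Foxh1, the SMAD partner at Nodal targets, rose from 70.9 ± 6.53 to 107 ± 10.3 CPM (0.60, SE 0.049, edgeR adjusted p = 3.86e-10), and Tgfb1 by 0.56 (SE 0.18, edgeR adjusted p = 0.0173), a call that neither replicate alone gave. Of the route proper, Gdf3 (0.19) and Tdgf1 (0.24) rose and Acvr1b (-0.36), Acvr2b (-0.28) and Smad3 (-0.32) fell, while Acvr2a was at 0.18, Smad4 at 0.084 and Smad2 at 0.018, not past the threshold. Endoderm markers summed to 20.7 to 31.5 CPM in Ctrl (median 23.8) and 25.6 to 39.3 CPM in dTAG libraries (median 36.03) of this line. Here too the sum was not split by gene, and the part of these markers was not tested. Cer1, Acvr1c, Tgfb3 and Inhba were too low to test in every line.

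**Figure D5:**
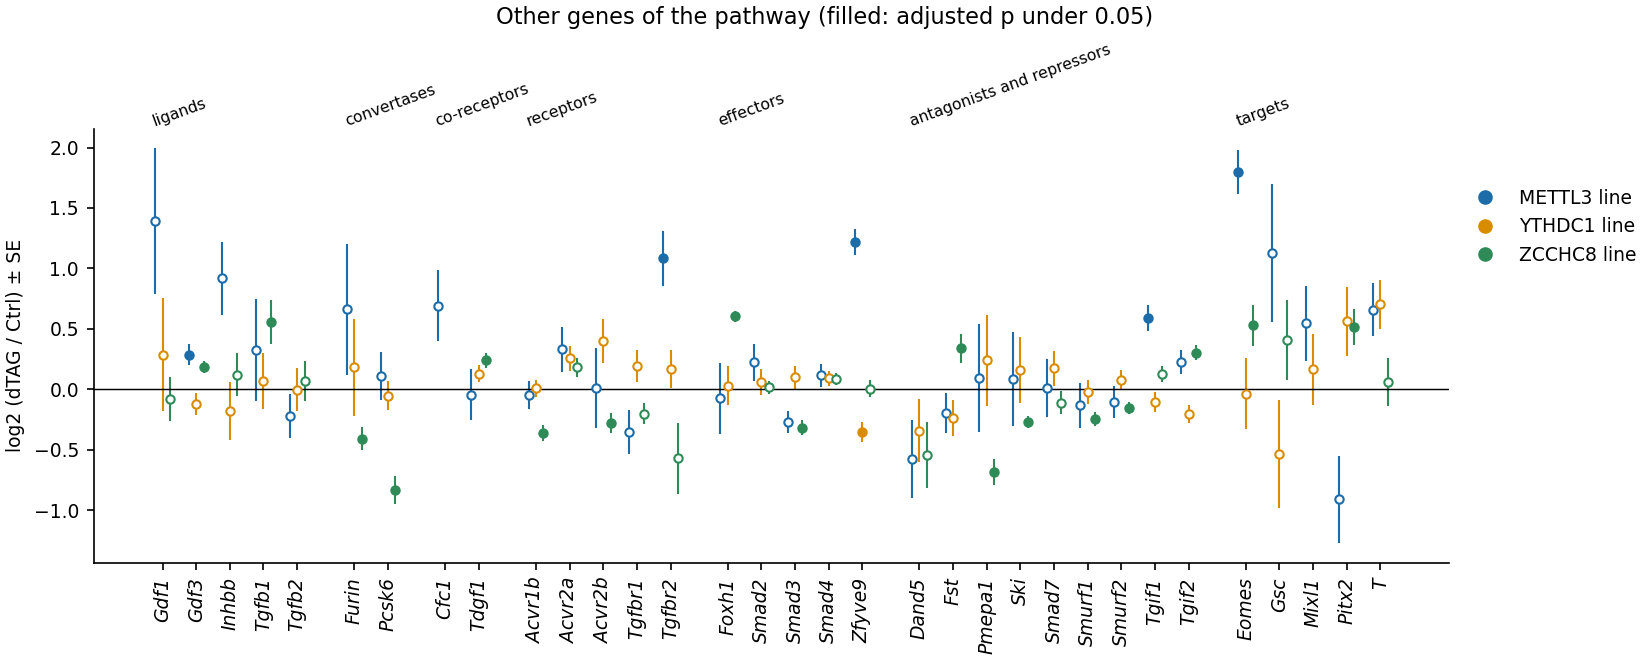
Fitted log2 fold change of dTAG over Ctrl (y axis, bars are SE) for the other pathway genes tested, grouped by role, in the METTL3 (blue), YTHDC1 (orange) and ZCCHC8 (green) lines. Filled points passed the threshold. Filled blue points all lie above 0, with Eomes highest at 1.80, and filled green points lie on both sides, 8 above and 9 below.

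Over the chase, 7 of the list rose and 4 fell in the METTL3 line, 8 rose and 6 fell in the YTHDC1 line, and 15 rose and 7 fell in the ZCCHC8 line (33.3%, 43.8% and 71.0% of those tested). Of all genes, 11.3% rose and 6.56% fell with METTL3, 23.2% rose and 18.7% fell with YTHDC1, and 29.7% rose and 28.9% fell with ZCCHC8 as the tagged protein. The antagonists and repressors that passed all rose, 2 of 9 in the METTL3 line, 3 of 9 in the YTHDC1 line and 8 of 9 in the ZCCHC8 line, as Lefty1 and Skil did and Lefty2 did not. The receptors that passed also all rose, 3 of 5 in each line, so this direction was not particular to antagonists and repressors. Among 17 to 19 genes of the list with enough reads for the label tests, 4 of 17 had a lower share of label in METTL3 dTAG libraries (Gdf3, Pcsk6, Zfyve9 and Ski, 23.5% against 24.1% of all genes lower), 0 passed in the other lines, and none passed for label loss.

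The genes whose CPM followed each gene most closely over the 36 libraries were found among 9510 genes by Pearson's r of log2 levels. The mean of each line and replicate was subtracted first, so r describes deviations over chase times and arms within them. For Nodal they were Npr1 (r = 0.90), Rasa4 (0.88), Iffo1 (0.86), Dgcr2 (0.84) and Ptp4a3 (0.84), and for Lefty1 D6Wsu163e, 2900097C17Rik, Eif2ak3, Limch1 (each 0.95) and Mfap3 (0.94). For Skil they were Zmym2 (0.96), Ubxn7, Katnbl1, Cwc22 (each 0.95) and Mtf2 (0.94), and for Lefty2 Far1 (0.85), Ccnh (0.83), Hook1 (0.83), Rap1b (0.82) and Csnk2a1 (0.82). Between the 4 genes r was 0.74 for Lefty1 with Skil, 0.68 for Nodal with Lefty1 and 0.53 for Nodal with Skil, and it was -0.18, -0.38 and -0.50 for Lefty2 with Lefty1, Skil and Nodal. The libraries share chase times and arms within each line and replicate, so these values describe this set and carry no p.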

How the data were processed

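The authors discarded ribosomal reads, aligned the rest to mm10 with STAR 2.5.2b (unique, end to end, mismatches up to 0.06 of read length) and ran GRAND-SLAM on the 6 libraries of each line and replicate. The annotation was from UCSC, and its release, the GRAND-SLAM version and strand use in counting are not given in the sources used here. The deposited read counts are raw, the deposited MAP ratio and its quantiles are fractions of new RNA, and the deposited conversions and T coverage are sums over reads (signal). Of the columns per library 252 were used, and 180 were not, among them posterior shape parameters.

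Counts were tested per line with edgeR 4.0.16 (filterByExpr, TMM, robust quasi-likelihood, chase time as a factor), differences between lines over all 36 libraries, and log2 MAP ratios with limma 3.58.1 (at least 100 reads and a ratio of 0.02 in every library of the line), with Benjamini-Hochberg adjustment over all genes tested and a threshold of 0.05. CPM used TMM-scaled library totals. An SE was computed from the estimate and its F value, and 95% intervals are normal intervals from that SE. By the study's methods the wells of a biological replicate shared a batch of cells. Same-numbered replicates deviated together between arms, with a correlation of 0.679 to 0.826 in the METTL3 and 0.742 to 0.803 in the YTHDC1 line. In the ZCCHC8 line it was 0.216 to 0.232, so the ground for pairing there was weaker. Numbers were taken to pair the arms of a line. A fit with the number as a block was an alternative, beside DESeq2 1.42.0, RLE size factors, no filter, single replicates and 0 min libraries. The tests were tried on simulated data. Other software was Biopython 1.88, matplotlib 3.10.9, pandas 2.3.3, numpy 2.4.6, Python 3.11.15 and R 4.3.3.

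The 4 members, the 37 pathway genes and the markers were chosen with earlier results of these data known. The text names the members, the route genes Gdf3, Tdgf1, Acvr1b, Acvr2a, Acvr2b, Smad2, Smad3, Smad4 and Foxh1 and, per line, at most 4 list genes with the largest passing change, plus the 5 genes closest to each member. Genes that passed for label share were named after their values were seen.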

Additional observations from a re-analysis of the deposited data

Results flagged for a closer look

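Count responses that differed between lines by a test of the difference were those of Lefty1 and Nodal. Lefty1 responded lower in the METTL3 than in the YTHDC1 line by -1.20 on the log2 scale and higher in the ZCCHC8 than in the METTL3 line by 1.26. Nodal responded lower in the METTL3 than in the YTHDC1 line by -0.62.

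In other cases the replicates of 1 chase time all moved one way between arms and those of another time the opposite way, with 2 replicates per time, and the difference was not tested. In the ZCCHC8 line Lefty1 was higher in dTAG by a mean of 0.72 ± 0.40 at 0 min and 0.29 ± 0.29 at 90 min and lower by -0.17 ± 0.12 at 180 min (SD, n = 2), changes of -0.90 and -0.46. In the YTHDC1 line Lefty2 moved from 0.069 ± 0.097 at 0 min to -0.45 ± 0.40 at 180 min, a change of -0.52. In the same line Skil moved from 0.14 ± 0.13 at 0 min and 0.10 ± 0.12 at 90 min to -0.055 ± 0.075 at 180 min, changes of -0.20 and -0.16.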

How the results depend on the processing

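Counts were at least 136 reads per library for each of the 4 genes, with 2 replicates per group. Of the 12 count responses of Nodal, Lefty1, Lefty2 and Skil, all 12 kept their direction and side of the threshold with RLE size factors and with DESeq2, and 11 of 12 did with the replicate block and without the filter on low counts. Single replicates turned the direction of 6 of 24 values, and the cause was not tested. Each such fit compares libraries of 1 batch per line, so its calls hold no spread between batches. The replicate block changed 1 of 12 count responses, 1 of 12 chase trends, 3 of 12 differences between lines and 6 of 12 Ctrl comparisons of the 4 genes, each to a call, and no other call of theirs. It changed none of their label values. For Ctrl levels between lines it removes the spread between batches that such a comparison needs.

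The number of genes past the threshold with the replicate block was 6994 (METTL3, 2898 without), 3874 (YTHDC1, 746 without) for the count response, 6692 and 9262 for the chase trend in those lines, 6172 (METTL3 against YTHDC1), 4338 (ZCCHC8 against YTHDC1) and 6390 (ZCCHC8 against METTL3) for the differences in response, 2289, 7003 and 8007 for those Ctrl levels, 99 for METTL3 label loss and 76 for YTHDC1 label share. In single replicates the count response gave 5716 to 7473, 1335 to 3555 and 3409 to 5091 genes in the METTL3, YTHDC1 and ZCCHC8 lines, and the METTL3 chase trend 3573 to 6604. Differences in response gave 3809 to 6482, 1697 to 4356 and 4155 to 6316, and Ctrl levels 1369 to 1406, 3614 to 6978 and 4694 to 7775, in the order of comparisons above. Label share gave 650 to 763, 0 to 170 and 17 to 23, and label loss 30 to 472, 22 to 33 and 33 to 72. The 0 min libraries alone, 2 against 2, gave 0, 0 and 1373 genes. DESeq2 gave 1156 genes for the YTHDC1 line. With at least 20 reads, METTL3 label loss gave 5 genes, YTHDC1 label share 8 and ZCCHC8 label share 3, and the logit scale gave 169 for METTL3 label loss.

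Count responses over single replicates ranged, in the METTL3 line, from -0.37 to 0.048 for Nodal, from -0.81 to -0.066 for Lefty2 and from -0.021 to 0.39 for Skil, in the YTHDC1 line from -0.00048 to 0.33 for Lefty1, from -0.26 to 0.081 for Lefty2 and from -0.015 to 0.14 for Skil, and in the ZCCHC8 line from 0.11 to 0.13 for Nodal and from -0.18 to 0.010 for Lefty2. Lefty2 in the METTL3 line was at -0.44 with the replicate block. In the 0 min libraries Lefty1 was at -0.78 in the METTL3 and 0.71 in the ZCCHC8 line, Nodal at 0.24 and Lefty2 at 0.088 in the YTHDC1 line, and Skil at 0.29 in the ZCCHC8 line. Without the filter Lefty1 in the ZCCHC8 line was at 0.20. Between lines, single replicates gave -0.080 to 0.067 for the Lefty2 difference of ZCCHC8 and YTHDC1, -0.019 to 0.34 for the Skil difference of ZCCHC8 and METTL3, and, for Ctrl levels of METTL3 against YTHDC1, -0.075 to 0.077 for Nodal, -0.14 to 0.064 for Lefty1 and -0.29 to 0.057 for Lefty2.

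For label share, the logit scale turned Nodal in the METTL3 line to 0.47, Lefty2 in the YTHDC1 line to -0.028, and Nodal, Lefty1 and Skil in the ZCCHC8 line to -0.37, -0.72 and -0.053. Single replicates gave -0.21 to 0.14 for Nodal in the METTL3 line, -0.19 to 0.13, -0.20 to 0.11, -0.039 to 0.070 and -0.14 to 0.11 for Nodal, Lefty1, Lefty2 and Skil in the YTHDC1 line, and -0.073 to 0.12, -0.024 to 0.14, -0.017 to 0.12 and -0.054 to 0.095 for them in the ZCCHC8 line. For label loss they gave -0.29 to 0.071, -0.28 to 0.038 and -0.036 to 0.11 for Nodal, Lefty1 and Skil in the METTL3 line, -0.15 to 0.054, -0.016 to 0.041 and -0.044 to 0.039 for these in the YTHDC1 line, and -0.048 to 0.063, -0.025 to 0.096 and -0.030 to 0.11 for Nodal, Lefty2 and Skil in the ZCCHC8 line. The median half-life over the 48 series of the 4 genes, 134 min from the MAP ratio, was 87.2 min from the T-to-C rate and 249.6 min from labelled CPM, with the 3 Lefty1 series in which it did not fall counted as longest.

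Other pathway genes near 0 changed sign. Acvr2b in the METTL3 line was at -0.021 with the replicate block, -0.0019 with RLE size factors, -0.011 without the filter, -0.11 in 0 min libraries, -0.0033 with DESeq2 and -0.15 to 0.11 in single replicates. There single replicates gave -0.32 to 0.16 for Tdgf1, -0.10 to 0.049 for Acvr1b, -0.0019 to 0.26 for Smad4 and -0.41 to 0.11 for Foxh1. In the YTHDC1 line they gave -0.010 to 0.011 for Acvr1b and -0.015 to 0.050 for Foxh1, and 0 min libraries gave -0.072 for Smad3 and -0.071 for Foxh1. Smad2 in the ZCCHC8 line was at -0.00081 with RLE size factors, -0.0047 without the filter, -0.00049 with DESeq2 and -0.034 to 0.060 in single replicates.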
